A study of Homo sapiens with 15 samples.

Results

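A group of 9 genes that androgens regulate in luminal cells of the prostate was followed through an RNA immunoprecipitation experiment: KLK3, KLK2, FOLH1, TRPM8, TMPRSS2, HOXB13, STEAP2, FKBP5 and SLC45A3. They were taken by name, with each row that carries the gene's symbol alone (the plain row) and each row that carries it with the suffix .primary. What the suffix stands for is not given in the sources used here, so the 2 kinds of row were kept apart. The LNCaP table holds 17 of these rows among 22169, that is 9 plain and 8 .primary rows, since FOLH1 has a plain row alone. The 22Rv1 table holds 8 among 22542, that is 4 plain rows (HOXB13, STEAP2, FKBP5, SLC45A3) and 4 .primary rows (TMPRSS2, STEAP2, FKBP5, SLC45A3). KLK3, KLK2, FOLH1 and TRPM8 have rows in the LNCaP table only.

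Both cell lines come from human prostate cancer. LNCaP is an androgen-sensitive line from a lymph node metastasis, and 22Rv1 was derived from a relapsed xenograft. Fixed cells gave 15 RNA libraries, with no treatment named in the labels and cells grown in serum-containing medium. LNCaP gave 2 libraries each from an antibody against Brg1, from non-specific IgG and from input, the RNA before precipitation. 22Rv1 gave 2 libraries each for Brg1, Sfpq and input and 3 for IgG. Brg1 is the motor subunit of SWI/SNF, a complex that moves nucleosomes, and Sfpq is a nuclear protein that binds RNA. The series asks whether SWI/SNF stays on chromatin when the long non-coding RNA SCHLAP1 is present, and these genes show what the precipitates hold of abundant prostate transcripts. The labels do not say that replicates came from separate cultures, so the p-values below measure only the spread between these libraries, which may be technical.

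Androgen signalling reaches its genes through androgen response elements, paired half-sites around a short spacer, in promoters and distant enhancers. In luminal prostate cells it drives secretory enzymes such as the kallikreins. HOXB13 and FOXA1 are lineage factors of these cells. Several genes under androgen control are widely used as markers of prostate origin or of active androgen signalling. KLK3 encodes prostate-specific antigen, a serine protease of seminal fluid, and KLK2 encodes a closely related kallikrein that can activate it. The 2 genes lie next to each other on chromosome 19 (GRCh38.p14), KLK3 at chr19:50854915-50860764 and KLK2 at chr19:50873439-50880567. SLC45A3 lies at chr1:205657851-205680509, TRPM8 at chr2:233917373-234019522 and FKBP5 at chr6:35573590-35728583. STEAP2 lies at chr7:90211740-90243408 and FOLH1 at chr11:49145092-49208602. HOXB13 lies at chr17:48724763-48728750 and TMPRSS2 at chr21:41464305-41508158.

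The promoters of this kallikrein pair are shown because the plain rows of both genes fell together in the Brg1 precipitate, as given further on. Each run is the 250 bases before the RefSeq gene start on the plus strand of GRCh38.p14, chr19:50854665-50854914 for KLK3 and chr19:50873189-50873438 for KLK2. Capitals mark the closest match to the androgen response element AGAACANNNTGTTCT, an AGAACA half-site and its reverse complement, which reads the same on both strands.
KLK3: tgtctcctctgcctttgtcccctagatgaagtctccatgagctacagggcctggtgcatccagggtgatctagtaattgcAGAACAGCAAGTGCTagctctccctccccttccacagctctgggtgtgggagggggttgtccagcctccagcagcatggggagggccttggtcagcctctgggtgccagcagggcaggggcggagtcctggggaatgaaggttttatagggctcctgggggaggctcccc
KLK2: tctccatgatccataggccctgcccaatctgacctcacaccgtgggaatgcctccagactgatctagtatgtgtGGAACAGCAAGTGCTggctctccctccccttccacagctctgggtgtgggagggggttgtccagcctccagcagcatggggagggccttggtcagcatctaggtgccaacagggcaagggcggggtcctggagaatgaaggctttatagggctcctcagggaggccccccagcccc
The KLK3 match, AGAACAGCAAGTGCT, spans bases -170 to -156 before the start and has 2 mismatches among the 12 fixed letters. The KLK2 match, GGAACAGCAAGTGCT, spans bases -176 to -162 and has 3 mismatches. The matches are equal at 14 of 15 positions and differ by A1G, counted from the first base of the KLK3 match. Of 35116 promoter windows of this length in the table, 1.18% hold a match with at most 2 mismatches and 9.17% with at most 3. Windows existed for 6 of the 9 genes and were lacking for FOLH1, TMPRSS2 and HOXB13. Besides the kallikreins, the best match had 3 mismatches for TRPM8 (6 windows), STEAP2 (2 windows) and FKBP5 (2 windows). For SLC45A3 (1 window) it had 6 mismatches. A match is a description of the sequence and no evidence of binding.

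Deposited values are normalized counts. Every value was a whole multiple of 1 factor per library, so reads were recovered and are given here as RPM, reads per 1000000 recovered reads of the library. Recovered reads ranged from 6367908 to 7506724 in the Brg1 and input libraries of LNCaP but were 22184 and 46297 in its IgG libraries, and they ranged from 490879 to 47871438 in 22Rv1. The share of all reads on .primary rows differed by library. In LNCaP it was 42.3% and 35.2% in input replicates A and B, and 50.8% and 60.5% in Brg1 replicates A and B. In 22Rv1 it was 36.5% ± 2.44 (SD, n = 2) in input, 64.2% ± 2.07 (n = 2) in Brg1 and 30.4% ± 4.20 (n = 2) in Sfpq. This difference between libraries runs through each comparison below, and its part in the members' values was not tested. All 17 and all 8 member rows passed the filter of a mean of at least 1 RPM. Changes in RPM are set beside the median over all rows of the same kind.

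The libraries labelled 22Rv1 carried prostate luminal markers at low levels. Of 7 luminal markers, 7 had a row in the LNCaP table and 5 in the 22Rv1 table, where ACPP and EPCAM had none. Their rows, plain and .primary summed, held 1373 to 1449.5 RPM in the LNCaP inputs and 98.0 to 101.5 RPM in the inputs labelled 22Rv1. The plain row of the keratin KRT8 had a mean of 149.7 RPM in LNCaP input against 15.4 RPM, and that of the adhesion gene CDH1 344.2 against 16.0 RPM. Markers of basal cells had a row for 1 of 5 genes in LNCaP (TP63) and for 0 of 5 in 22Rv1, and the 4 immune markers had none in either table. Neuroendocrine markers had a row for 1 of 5 genes in each table, CHGA in LNCaP and SYP in 22Rv1. They held 2.13 to 2.41 RPM in LNCaP input and 18.6 to 20.3 RPM in input labelled 22Rv1, values of different genes. Stromal markers, with rows for 1 and 2 of 5 genes, held 19.2 to 19.8 RPM against 28.2 to 34.2 RPM. COL1A1, the stromal gene with rows in both, had means of 19.5 RPM in LNCaP input and 18.8 RPM in input labelled 22Rv1. ACTA2, at a mean of 12.4 RPM in input, had a row in 22Rv1 only. Endothelial markers had a row for 1 of 3 genes in LNCaP (32.3 to 33.7 RPM) and for 0 of 3 in 22Rv1. Among rows singled out after their values were seen, the intermediate filament gene VIM was at 8.65 to 12.4 RPM in LNCaP input and at 239.4 to 263.6 RPM in input labelled 22Rv1. IRS4, an insulin receptor substrate, and LIN28B, an RNA-binding protein gene, had no plain row in LNCaP and were at 436.5 to 469.8 and 41.8 to 43.2 RPM in input labelled 22Rv1. A luminal identity of the libraries labelled 22Rv1 thus rests on their label, and each statement on them below is about libraries so labelled.

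**Figure D1:**
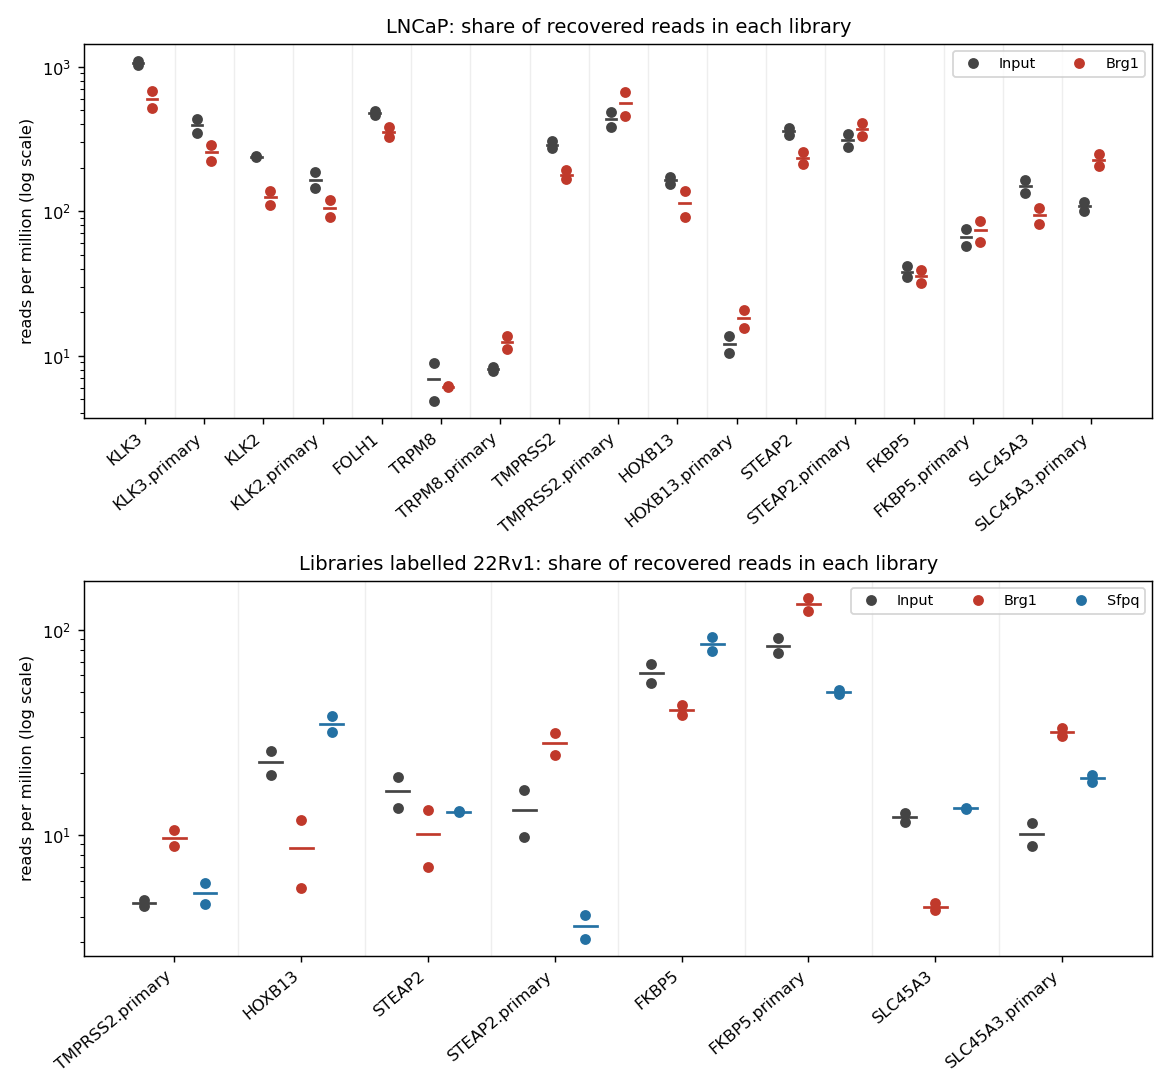
Share of recovered reads (RPM, log axis) of each member row in each Brg1, Sfpq and input library, for LNCaP and for the libraries labelled 22Rv1 (IgG is not drawn). Points are single libraries coloured by group and lines are group means. In LNCaP input KLK3 lies at 1020 and 1094 RPM and TRPM8 at 4.82 and 8.93 RPM, and the rows of STEAP2, SLC45A3 and TMPRSS2.primary lie far lower in the libraries labelled 22Rv1.

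Input held far more of 4 of the 5 genes with rows in both tables in LNCaP than in the libraries labelled 22Rv1. In such bulk RNA, fewer cells that express a gene and less RNA per cell cannot be told apart. STEAP2, a metalloreductase of the secretory pathway, was at 338.0 and 377.4 RPM in the LNCaP inputs and at 19.2 and 13.6 RPM in the inputs labelled 22Rv1, a ratio of means of 21.8. TMPRSS2.primary was at 487.1 and 384.5 RPM against 4.83 and 4.49 RPM, a ratio of 93.6. TMPRSS2 encodes a membrane serine protease whose androgen-driven promoter is fused to ETS genes in many prostate cancers. SLC45A3, which encodes the membrane transporter prostein, was at 134.1 and 164.1 RPM against 12.8 and 11.6 RPM, a ratio of 12.2, and its .primary row had a ratio of 10.6. HOXB13, the homeodomain factor of the prostate lineage, was at 153.8 and 173.4 RPM against 19.7 and 25.6 RPM, a ratio of 7.24.

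FKBP5 went the other way. It encodes FKBP51, a co-chaperone of steroid receptors that glucocorticoids induce as well as androgens. Its plain row was at 34.7 and 41.4 RPM in LNCaP input and at 55.1 and 68.2 RPM in input labelled 22Rv1, 1.62 times higher in the latter. FKBP5.primary was at 75.3 and 57.7 RPM against 90.9 and 76.8 RPM, 1.26 times higher. The inputs of the lines did not overlap for any of the 8 rows. The share of all rows without overlap is not given here, so that count says little about the members. Over the 19400 rows in both tables the ratio of LNCaP to 22Rv1 input had a median of 0.846 (10th to 90th percentile, 0.401 to 1.89). The 6 rows of TMPRSS2, HOXB13, STEAP2 and SLC45A3 lay at percentiles 98.9 to 99.9 of that range and the FKBP5 rows at 27.6 and 45.1. No test was made, because the tables were scaled separately and hold 2 inputs a line.

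In LNCaP, the Brg1 precipitate held a smaller share of several plain member transcripts than input, those of KLK3 and KLK2 among them, while 1 .primary row, that of SLC45A3, held a larger share. Of the 9 plain rows 3 passed limma-voom as lower (KLK3, KLK2 and TMPRSS2) and none as higher, against a background of 16.6% lower and 1.67% higher over all 10718 plain rows. Of the 8 .primary rows 1 passed limma-voom as higher (SLC45A3.primary) and none as lower, against 20.7% higher and 6.41% lower over 11451 .primary rows. The .primary count is near its background, and the plain count of 3 of 9 is above it by few rows. DESeq2 called more members lower. With it 5 of 9 plain rows were lower (STEAP2 and SLC45A3 besides those 3; background 10.8%), 2 of 8 .primary rows were lower (KLK3.primary and KLK2.primary; background 3.86%) and 1 was higher (SLC45A3.primary; background 21.3%). All 9 plain rows lay below 0, as did 71.5% of all plain rows. The median log2 change was -0.62 over the 9 plain rows and -0.30 over all plain rows. For .primary rows it was 0.30 over the members and 0.20 over all.

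**Figure D2:**
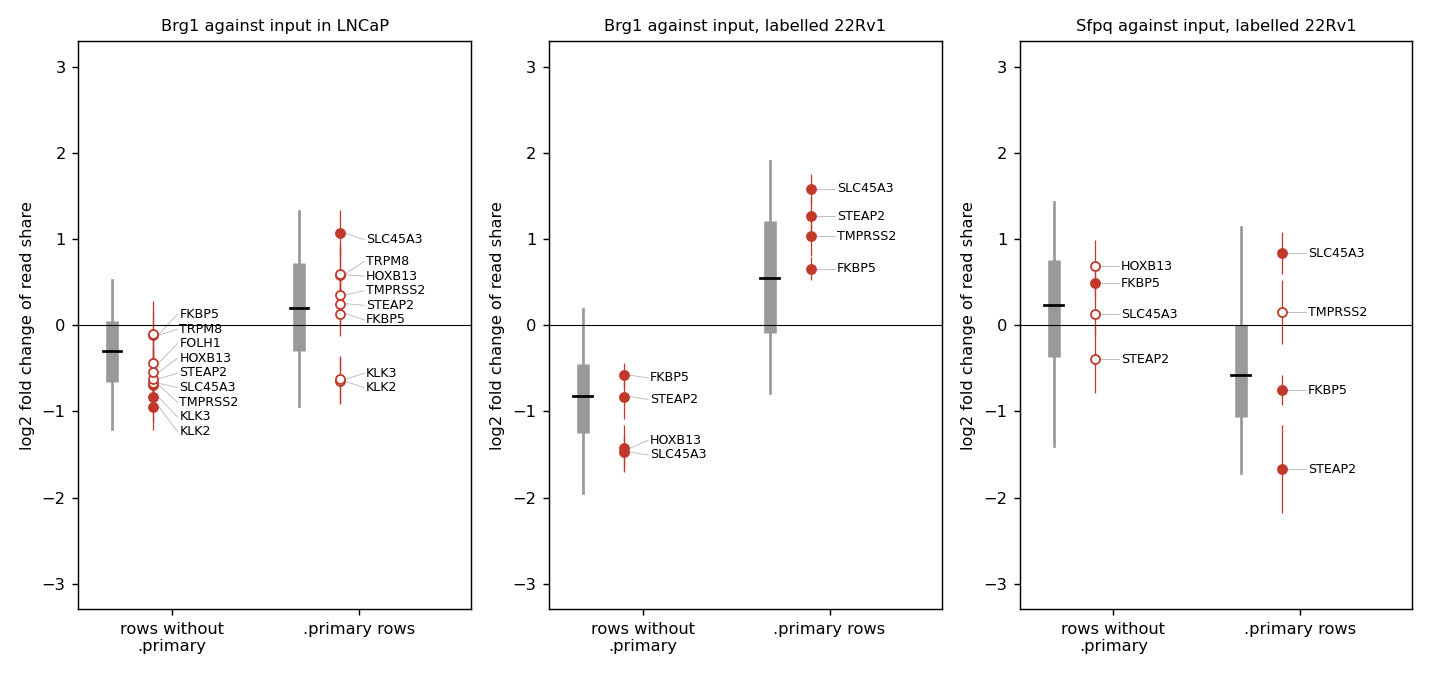
Log2 change in read share (Brg1 or Sfpq against input) for each member row, with bars of 1 SE and filled points for an adjusted p-value under 0.05. Grey bars give the central ranges of all rows of the same kind, from the 5th to the 95th and from the 25th to the 75th percentile, with the median in black. In LNCaP the plain rows all lie below 0 and SLC45A3.primary is the highest member, while in the libraries labelled 22Rv1 plain and .primary rows lie on opposite sides of 0 for Brg1.

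KLK3 was at 1020 and 1094 RPM in LNCaP input replicates A and B and at 677.8 and 515.2 RPM in Brg1 replicates A and B. Both precipitates lay below both inputs, a log2 change of -0.84 (SE 0.28, limma-voom adjusted p = 0.0179). KLK2 was at 239.9 and 237.1 RPM in input and at 138.8 and 110.6 RPM in Brg1, again without overlap, a change of -0.94 (SE 0.27, limma-voom adjusted p = 0.0046). These 2 kallikreins are close paralogs, and how reads shared between them were counted is not given in the sources used here.

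The .primary rows of the kallikreins also lay below input in both Brg1 libraries, though neither passed limma-voom. KLK3.primary was at 437.2 and 346.8 RPM in input and at 220.8 and 288.7 RPM in Brg1, a change of -0.63 (limma-voom adjusted p = 0.0761). KLK2.primary was at 185.6 and 143.5 RPM in input and at 90.8 and 119.1 RPM in Brg1, a change of -0.65 (limma-voom adjusted p = 0.0602). Both passed as lower with DESeq2 (adjusted p = 0.0434 and 0.0472) and, by limma-voom, without Brg1 replicate B (adjusted p = 0.0301 and 0.0247). They were the only member .primary rows below 0, and they lay at percentiles 12.1 and 11.2 among all .primary rows, where the median was 0.20. Their plain rows lay at percentiles 15.2 and 11.2 among plain rows.

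FOLH1, TMPRSS2, STEAP2, TRPM8 and SLC45A3 encode membrane proteins. FOLH1 encodes prostate-specific membrane antigen, a carboxypeptidase. It was at 464.4 and 491.6 RPM in input and at 380.7 and 327.4 RPM in Brg1, which did not overlap, but its change of -0.44 (SE 0.27) did not pass the test (limma-voom adjusted p = 0.241). A nearly identical gene, FOLH1B, exists, and how reads shared with it were counted is not given either. TMPRSS2 was at 273.3 and 304.3 RPM in input and at 191.9 and 166.2 RPM in Brg1, a change of -0.69 (SE 0.27, limma-voom adjusted p = 0.0463), close to the threshold. This call was lost with trimmed mean of M values (TMM) scaling, in limma-voom (adjusted p = 0.0735) and in edgeR (adjusted p = 0.0608). TMPRSS2.primary was at 487.1 and 384.5 RPM in input and at 456.7 and 671.7 RPM in Brg1, and there the groups overlapped.

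STEAP2 was at 338.0 and 377.4 RPM in input and at 254.6 and 210.6 RPM in Brg1, a change of -0.62 that did not pass (limma-voom adjusted p = 0.0759), and its .primary row overlapped between the groups at 276.8 to 406.5 RPM. TRPM8, the cold- and menthol-gated cation channel, was the sparsest plain member by reads. Its plain row held 34 and 67 reads in the inputs and 39 and 42 in the Brg1 libraries, so that the single input libraries enclosed both precipitates (change -0.11, SE 0.40). TRPM8.primary was at 8.36 and 7.86 RPM in input and at 11.1 and 13.6 RPM in Brg1. All of its Brg1 values were above input, but the change of 0.60 (SE 0.34) did not pass (limma-voom adjusted p = 0.189).

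SLC45A3 split by row. Its plain row was at 134.1 and 164.1 RPM in input and at 105.5 and 82.0 RPM in Brg1, a change of -0.67 (SE 0.27) that lay just outside the threshold (limma-voom adjusted p = 0.0509). SLC45A3.primary was at 116.4 and 99.8 RPM in input and at 205.4 and 249.6 RPM in Brg1, and it rose by 1.07 on the log2 scale (SE 0.27, limma-voom adjusted p = 0.0011), 2.10-fold. It lay at percentile 89.3 among all .primary rows, so about 1 .primary row in 10 had a higher value.

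HOXB13 and FKBP5, a transcription factor and a receptor co-chaperone, had no row past the test. HOXB13 was at 153.8 and 173.4 RPM in input and at 137.4 and 91.1 RPM in Brg1 (change -0.55, limma-voom adjusted p = 0.123). HOXB13.primary was at 13.8 and 10.4 RPM in input and at 15.5 and 20.6 RPM in Brg1 (change 0.59, limma-voom adjusted p = 0.157). FKBP5 overlapped between the groups in both rows, with changes of -0.10 (SE 0.28) and 0.14 (SE 0.27). In all, 7 plain rows had both Brg1 libraries below both inputs, as had 50.1% of all plain rows. Among the .primary rows 3 lay wholly above input (42.0% of all .primary rows), 2 wholly below it (22.2%) and 3 overlapped.

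These LNCaP calls rest on few libraries and on the scale. Without input replicate A or without input replicate B no member row passed (KLK2 changed by -0.94 and -0.95, with limma-voom adjusted p = 0.148 and 0.180), and without Brg1 replicate B neither KLK3 nor TMPRSS2 did. On the deposited normalized scale, log2(value + 1), the median of all rows moved from -0.09 to -1.46, all 17 member rows lay below 0 and 16 passed as lower, against 82.3% of all rows. There SLC45A3.primary was at -0.30 (limma adjusted p = 0.309), and the other .primary rows that lay above 0 as shares turned negative. Share values therefore describe the make-up of each library relative to its other rows, not an amount of RNA.

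The ratio of the .primary to the plain row of a gene within a library does not depend on scaling. For SLC45A3 in LNCaP, .primary reads made up 46.5% and 37.8% of the gene's reads in input replicates A and B and 66.1% and 75.3% in Brg1 replicates A and B. The ratio rose by 1.74 on the log2 scale (SE 0.49, limma adjusted p = 0.0055), which was percentile 93.9 of all 7993 genes with both rows. It was the 1 of 8 members past the test, against 13.0% of all genes with a higher ratio. Its call was lost without either input replicate or without Brg1 replicate B (limma adjusted p = 0.0759 to 0.710).

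The other members had higher ratios in Brg1 without passing. TMPRSS2 went from 64.1% and 55.8% .primary in input to 70.4% and 80.2% in Brg1 (log2 ratio change 1.05, SE 0.48, limma adjusted p = 0.127), and the groups did not overlap. STEAP2 went from 50.2% and 42.3% to 56.4% and 65.9%, and HOXB13 from 8.2% and 5.7% to 10.2% and 18.5%, each without overlap. KLK3 went from 30.0% and 24.1% to 24.6% and 35.9%, and KLK2 from 43.6% and 37.7% to 39.5% and 51.9%, so both kallikreins overlapped (log2 ratio changes 0.21 and 0.29). All 8 members lay above 0, with a median of 0.79 beside 0.32 over all genes. The shares of all genes without overlap or above 0 are not given here, so these counts say little about the members. The .primary part of all reads of a library also did not overlap, at 42.3% and 35.2% in input and 50.8% and 60.5% in Brg1.

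**Figure D3:**
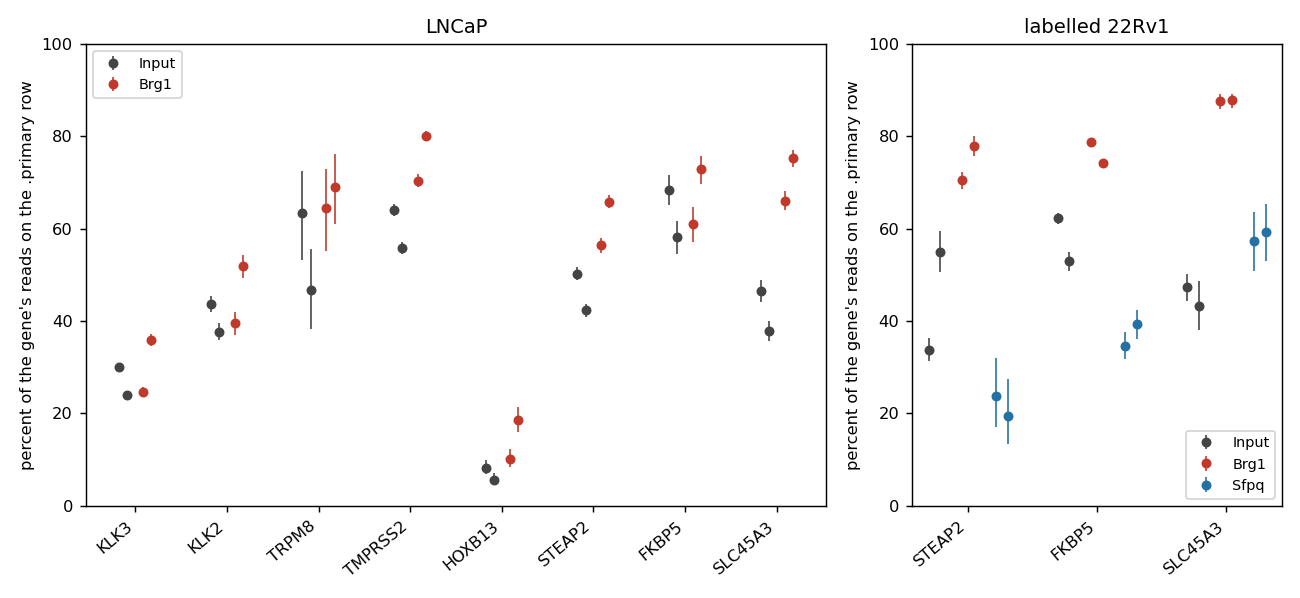
Percentage of each gene's reads that lie on its .primary row in each library, with 95% Wilson intervals that cover counting error only. SLC45A3 shows the widest separation in LNCaP, 37.8% to 46.5% in input and 66.1% to 75.3% in Brg1. In the libraries labelled 22Rv1 its Brg1 values are near 88%, and its Sfpq values lie above input, whereas those of FKBP5 and STEAP2 lie below.

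In the libraries labelled 22Rv1 the Brg1 precipitate held less of each plain member row and more of each .primary row than input. All 4 plain rows passed as lower, against a background of 77.6% of plain rows, and all 4 .primary rows passed as higher, against 54.8% of .primary rows. With backgrounds of that size the counts say little about these genes in particular. The libraries of the 2 groups did not overlap for any of the 8 rows. Among all plain rows 85.2% lay wholly below input, and among all .primary rows 63.2% lay wholly above it.

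SLC45A3 changed in both rows. SLC45A3.primary was at 11.4 and 8.85 RPM in input and at 30.5 and 33.4 RPM in Brg1, and it rose by 1.59 (SE 0.17, limma-voom adjusted p = 5.26e-06), percentile 87.8 among .primary rows. The plain row was at 12.8 and 11.6 RPM in input and at 4.29 and 4.64 RPM in Brg1, and it fell by 1.47 on the log2 scale (SE 0.20, limma-voom adjusted p = 3.17e-05). The .primary part of its reads went from 47.3% and 43.3% to 87.7% and 87.8%, a log2 ratio change of 3.11 (SE 0.28, limma adjusted p = 1.26e-05) at percentile 94.7 of 8246 genes. HOXB13 was at 19.7 and 25.6 RPM in input and at 5.51 and 11.8 RPM in Brg1, and it fell by 1.43 (SE 0.27, limma-voom adjusted p = 0.0005).

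STEAP2.primary was at 9.76 and 16.6 RPM in input and at 31.6 and 24.6 RPM in Brg1 (change 1.27, SE 0.22, limma-voom adjusted p = 0.0002). The plain STEAP2 row was at 19.2 and 13.6 RPM in input and at 13.2 and 6.96 RPM in Brg1, so the groups nearly touched (change -0.83, SE 0.26, limma-voom adjusted p = 0.0122). That call was lost without Brg1 replicate B (-0.36), without input replicate A (-0.50), with TMM scaling in limma-voom (-0.59) and edgeR (-0.46, adjusted p = 0.172), and with DESeq2's own size factors (-0.51, adjusted p = 0.148). FKBP5.primary went from 90.9 and 76.8 RPM to 142.6 and 123.5 RPM (change 0.66, SE 0.14), and FKBP5 from 55.1 and 68.2 RPM to 38.5 and 43.0 RPM (change -0.58, SE 0.15). FKBP5 did not pass with TMM scaling in limma-voom (-0.34) or edgeR (-0.36). TMPRSS2.primary went from 4.83 and 4.49 RPM to 10.6 and 8.86 RPM (change 1.03, SE 0.22, limma-voom adjusted p = 0.0012).

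The ratio within a gene passed for all 3 genes with both rows in this table, against 64.3% of all genes. Besides SLC45A3, the log2 ratio changes were 1.88 for STEAP2 and 1.26 for FKBP5, next to a median of 1.16 over all genes. The FKBP5 call was lost without input replicate B (0.99). On the deposited scale the directions of the 8 rows held, and 1 of 4 .primary rows (SLC45A3.primary, 1.24) passed as higher and 3 of 4 plain rows as lower, against 11.3% and 56.3% of all rows of these kinds. The median of all rows moved there from -0.27 to -0.69. TMM scaling moved the split of all called rows from 40.2% higher to 51.8% higher, as it did in LNCaP from 50.4% to 61.5%.

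In the libraries labelled 22Rv1 the Sfpq precipitate held less of 2 .primary rows than input, and more of 1 .primary and 1 plain row. Because Brg1 and Sfpq share the 2 input libraries, their changes are given side by side and were compared only by the direct contrast that follows. STEAP2.primary was at 4.06 and 3.13 RPM in Sfpq, below both inputs at 9.76 and 16.6 RPM, and it fell by 1.67 (SE 0.51, limma-voom adjusted p = 0.016), percentile 5.59. FKBP5.primary was at 48.6 and 51.0 RPM, below both inputs, and it fell by 0.75 (SE 0.17, limma-voom adjusted p = 0.0031). SLC45A3.primary was at 18.2 and 19.6 RPM, above both inputs at 11.4 and 8.85 RPM, and it rose by 0.84 (SE 0.25, limma-voom adjusted p = 0.0128), percentile 92.1. TMPRSS2.primary overlapped input at 4.62 and 5.85 RPM.

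Thus 2 of 4 .primary rows fell and 1 rose, against backgrounds of 41.9% lower and 10.2% higher. Among the 4 plain rows, only FKBP5 passed, as higher, against a background of 36.3%. It was at 91.9 and 78.9 RPM in Sfpq and at 55.1 and 68.2 RPM in input (change 0.49, SE 0.16, limma-voom adjusted p = 0.023), while on the deposited scale its change was -0.046. HOXB13 was at 38.0 and 31.8 RPM, above both inputs (change 0.69, limma-voom adjusted p = 0.0711), and it passed with TMM scaling, edgeR and DESeq2. SLC45A3 and STEAP2 were at 13.5 to 13.6 RPM and 12.9 to 13.0 RPM in Sfpq and did not pass.

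The .primary part of the gene's reads was 57.3% and 59.3% for SLC45A3 in Sfpq, above both inputs at 47.3% and 43.3%. It was 34.6% and 39.3% for FKBP5, below 62.2% and 53.0%, and 23.8% and 19.5% for STEAP2, below 33.7% and 55.1%. The log2 ratio rose by 0.75 for SLC45A3 (limma adjusted p = 0.0345, background 8.96% higher) and fell for FKBP5 (-1.22) and STEAP2 (-1.50; background 55.4% lower). The SLC45A3.primary call was lost without either Sfpq replicate (0.88 and 0.78), on the deposited scale (0.39), and for the ratio without any 1 of the 4 input and Sfpq libraries (0.64 to 0.87). Without Sfpq replicate A no plain or .primary FKBP5 call remained (0.39 and -0.73), without input replicate A the plain one was lost (0.32), and without either Sfpq replicate STEAP2.primary did not pass (-1.83 and -1.46). The fall of the STEAP2 ratio did not pass without input replicate B or Sfpq replicate B, nor that of FKBP5 without input replicate A.

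In the direct contrast of Brg1 with Sfpq, added after the values were seen, all 4 .primary rows were higher in Brg1 (background 68.2%) and 3 of 4 plain rows were lower (background 67.8%). STEAP2.primary differed by 2.94 (SE 0.50, limma-voom adjusted p = 0.0002), percentile 98.5 among .primary rows, and FKBP5.primary by 1.41. SLC45A3.primary differed by 0.75 (limma-voom adjusted p = 0.0081), below the .primary median of 1.17, and this call was lost without either Sfpq replicate. TMPRSS2.primary differed by 0.88 (limma-voom adjusted p = 0.0323), a call lost without Brg1 replicate A or either Sfpq replicate. HOXB13 was lower by a log2 change of -2.12 and SLC45A3 by one of -1.60. STEAP2 did not pass (-0.43, limma-voom adjusted p = 0.331). On the deposited scale 2 of 4 .primary rows were higher (background 55.6%) and 2 of 4 plain rows lower (background 42.6%). TMPRSS2.primary (limma adjusted p = 0.133), SLC45A3.primary (0.116) and FKBP5 (0.0746) did not pass there.

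IgG measures what a non-specific antibody brings down, and in LNCaP it was too shallow for most members. The 2 libraries held 68481 reads together, and 3 reads, the limit that a count of 0 allows, correspond to 43.8 RPM over both. Of the 17 rows 4 had 0 reads in both IgG libraries and 9 had at most 3 reads. SLC45A3 had 0 IgG reads and a Brg1 mean of 93.8 RPM, 2.14 times this pooled limit. That is no secured minimum, because IgG reads of other rows fell unevenly over the 2 libraries. In single libraries 3 reads are 135.2 RPM (replicate A) and 64.8 RPM (replicate B). TRPM8, FKBP5 and HOXB13.primary had 0 IgG reads as well. Their Brg1 means of 6.09, 35.5 and 18.1 RPM lie under the pooled limit, so a difference was not detectable at this depth.

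KLK3 had 0 and 31 reads in IgG replicates A and B, KLK3.primary 0 and 20, and FOLH1 1 and 19. STEAP2 had 0 and 18 reads, and TMPRSS2.primary 0 and 15. The reads of these abundant members thus came almost wholly from replicate B. In the fit of all LNCaP groups, Brg1 against IgG passed as higher for 5 member rows (TMPRSS2, TMPRSS2.primary, STEAP2.primary, SLC45A3 and SLC45A3.primary) and as lower for none. Of all rows 3.32% passed as higher and 18.1% as lower. Limma-voom adds 0.5 read to each count, so TRPM8, with 0 IgG reads and a Brg1 mean of 6.09 RPM, was at -1.34. How much of the 18.1% comes from such sparse rows was not tested. These backgrounds are therefore no measure of how unusual the 5 rows are. None of the 5 passed without IgG replicate A or without Brg1 replicate B, and 1 passed without Brg1 replicate A or without IgG replicate B. With TMM scaling TMPRSS2 (limma-voom adjusted p = 0.1001), TMPRSS2.primary (0.317) and STEAP2.primary (0.103) did not pass and FKBP5 did (0.0329), and TMPRSS2.primary did not pass with DESeq2 (0.370). Without either input library STEAP2.primary and SLC45A3.primary did not pass (limma-voom adjusted p = 0.0726 to 0.0907), and KLK3 did. On the deposited scale all 17 member rows were higher in Brg1, as were 99.6% of all rows.

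In the libraries labelled 22Rv1 none of 8 member rows passed against IgG by limma-voom, where 5.59% of all rows were higher and 0.559% lower. Unadjusted, 3 rows had limma-voom p-values under 0.05. The share of all rows under that threshold is not given here, so this count says little about the members. With edgeR no member row was called, and DESeq2 called HOXB13 and STEAP2 lower in Brg1 (background 5.47%). The scale turned the direction of both. HOXB13 was at -2.16 as a share and at 4.90 on the deposited scale (limma adjusted p = 2.27e-05), and STEAP2 at -1.93 and at 5.11 (limma adjusted p = 1.09e-05). On that scale all 8 member rows were higher in Brg1 than in IgG, as were 99.8% of all rows. Leaving out 1 IgG library let TMPRSS2.primary (4.17) and HOXB13 (-2.65) pass without replicate A, STEAP2 (-1.97) without B and SLC45A3 (3.84) without C. Called rows of the whole table rose as well, from 1386 to 3747 without A, 5102 without B and 2429 without C. STEAP2 was at 44.8, 49.1 and 26.5 RPM in the 3 IgG libraries, above both Brg1 libraries at 13.2 and 6.96 RPM. HOXB13 was at 17.0, 63.4 and 44.8 RPM in IgG, above both Brg1 libraries at 5.51 and 11.8 RPM. SLC45A3 ranged from 0 to 14.3 RPM and STEAP2.primary from 0 to 24.9 RPM over the IgG libraries, a spread wider than the difference from input.

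Other androgen-responsive genes, with the members left out, were read in the same LNCaP contrast of Brg1 with input. These 34 genes were chosen from textbook knowledge but with earlier results of these data known, so they are no independent check. Of their 30 plain rows 10 fell and none rose (median -0.51), and of their 24 .primary rows 7 rose and 2 fell (median 0.45). Over all plain rows 16.6% fell and 1.67% rose (median -0.30), and over all .primary rows 20.7% rose and 6.41% fell (median 0.20). PMEPA1, a membrane adaptor that restrains TGF-beta signalling, had the smallest p-values in both directions. PMEPA1.primary was at 59.0 and 47.8 RPM in input and at 287.4 and 333.3 RPM in Brg1 and rose by 2.54 (SE 0.27, limma-voom adjusted p = 3.12e-18). Its plain row was at 60.5 and 65.4 RPM in input and at 14.6 and 13.3 RPM in Brg1 and fell by 2.17 (SE 0.29, limma-voom adjusted p = 4.32e-11).

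Further .primary rows that rose were NDRG1 (1.45), a stress-induced growth suppressor, and SORD (1.24), sorbitol dehydrogenase. Plain rows that fell included B4GALT1 (-1.43), a galactosyltransferase, and ELL2 (-1.58), a transcription elongation factor. In the libraries labelled 22Rv1, 22 of 25 plain rows of the list fell and 14 of 20 .primary rows rose with Brg1, beside backgrounds of 77.6% and 54.8%. With Sfpq 9 of 25 plain rows rose and 1 fell, and 2 of 20 .primary rows rose and 7 fell. The backgrounds were 36.3% higher and 16.3% lower for plain rows and 10.2% higher and 41.9% lower for .primary rows, so these counts are near them.

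Rows of lineage transcription factors and of steroid receptor cofactors were read in the LNCaP contrast too, beside the same backgrounds of 16.6% lower for plain rows and, for .primary rows, 20.7% higher and 6.41% lower. Of 6 plain rows of lineage factors 0 passed by limma-voom, with 0 at an unadjusted p under 0.05 and 0 by edgeR or DESeq2, although all 6 lay below 0 (median -0.39). On the deposited scale with a pseudocount of 1 all 6 fell, where 82.3% of all rows fell. With blocks of crossed replicate letters, a fit added after the values were seen, 4 fell, where 5690 of all 22169 rows fell. Of 5 .primary rows CREB3L4.primary fell (-0.99, limma-voom adjusted p = 0.00587), from a bZIP transcription factor gene. Of 13 plain rows of cofactors 1 fell, the coactivator NCOA1 (-0.71). Of 12 .primary rows the coactivator NCOA2 (0.83) rose, and the Mediator subunit MED1 (-1.22) and the chaperone HSP90AB1 (-0.82) fell. No test was made between these lists and the members.

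Among 10709 other plain rows, those nearest to KLK3 in centred log2 share over the 4 LNCaP Brg1 and input libraries were HS6ST1, a heparan sulfate sulfotransferase (Euclidean distance 0.0188), ZFYVE9, an adaptor of TGF-beta receptors (0.0208), and SLC6A8, a creatine transporter (0.0265). KLK2 was farther, at 0.143. For KLK3.primary the nearest of 11443 .primary rows were SLC35E2B.primary (0.0110), RELA.primary (0.0129) and RAB11A.primary (0.0134), with KLK2.primary at 0.0362. Over 4 libraries of 2 groups such closeness reflects little more than a similar change between the groups.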

How the data were processed

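RNA immunoprecipitation libraries were analysed from 1 table per cell line. Per the submitters' processing notes, STAR 2.6, Salmon 0.8.2, deepTools 2.5.2, DESeq2 and the build hg38 were used, with no role or order given. The deposited signal is normalized counts by the authors, and their scaling factors and the use of the spike-in RNA are not given in the sources used here. Whole reads were recovered for 100% of values in every library (tolerance 0.001 read), and no row was left out by name. No 2 libraries agreed within sampling noise (lowest chi-square per degree of freedom 6.48).

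Shares were tested by limma-voom (limma 3.58.1, R 4.3.3), with the total of recovered reads as library size, on rows with a mean of at least 1 RPM, with Benjamini-Hochberg adjustment over all rows and a threshold of 0.05. LNCaP Brg1 was fitted with input only, Brg1 and Sfpq of 22Rv1 with input in one fit, and IgG contrasts with all groups of a line. The ratio test was limma with trend on log2((.primary reads + 0.5)/(plain reads + 0.5)) for genes with a mean of at least 10 reads in each row. Both tests were run on data simulated with the same dispersion for every row. That run does not address how far calls here depend on single libraries, and its outcome is not given here. Alternatives were TMM scaling, the deposited scale with pseudocounts of 0.1, 1 and 5, edgeR 4.0.16, DESeq2 1.42.0, filters, fits with more or fewer groups, a replicate block and leaving out each library. Motif matches used RefSeq promoters of GRCh38.p14. Wilson intervals and the floor of 3 reads cover counting error only, since reads are not independent molecules.

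Named rows are all rows of the 9 genes, up to 3 rows per list and direction with the smallest adjusted p-values in LNCaP Brg1 against input, and the 3 rows nearest to KLK3 and KLK3.primary. Outside this rule, KRT8, CDH1, ACPP, EPCAM, TP63, CHGA, SYP, COL1A1 and ACTA2 were named from the marker lists. VIM, IRS4 and LIN28B were named after their values were seen. The members and lists were chosen with earlier results of these data known. Some genes of the marker and pathway lists are not reported here and were left out of the counts.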

Additional observations from a re-analysis of the deposited data

How the results depend on the processing

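Over all member rows and ratios tested and every alternative run, 974 values kept their direction and side of the threshold, 131 lost a call, 111 gained one and 73 changed direction, and 3 had no adjusted p in DESeq2 and were left out. Counts of called rows moved strongly where the IgG libraries joined the fit. With all groups in the fit, called rows fell from 5063 to 123 in LNCaP Brg1 against input, from 16744 to 2309 in 22Rv1 Brg1, from 11798 to 65 in Sfpq and from 16587 to 1951 in Brg1 against Sfpq, and called ratios fell from 1118 to 3 in LNCaP and to 0 in the 3 ratio contrasts of 22Rv1 by limma (386, 275 and 1577 genes at an unadjusted p under 0.05 for Brg1, Sfpq and Brg1 against Sfpq). No member row or ratio against input passed there, and the cause was not tested.

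On the deposited scale with pseudocounts of 1, 0.1 and 5, called rows numbered 18307, 18278 and 18348 in LNCaP Brg1 against input, 8020, 8009 and 8050 in 22Rv1 Brg1, 7342, 7339 and 7349 in Sfpq, 22088, 22084 and 22076 in LNCaP Brg1 against IgG, and 22489, 22479 and 22527 in 22Rv1 Brg1 against IgG. With the same 3 pseudocounts these LNCaP Brg1 changes turned negative: TRPM8.primary (-0.77, -0.77, -0.75), TMPRSS2.primary (-1.02, -1.02, -1.02), HOXB13.primary (-0.79, -0.79, -0.78), STEAP2.primary (-1.12, -1.12, -1.12), FKBP5.primary (-1.24, -1.24, -1.23) and SLC45A3.primary (-0.30, -0.30, -0.30). So did these Sfpq changes: TMPRSS2.primary (-0.36, -0.36, -0.35), FKBP5 (-0.046, -0.047, -0.046) and SLC45A3 (-0.37, -0.37, -0.36).

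Against IgG, called rows numbered 4742 in LNCaP, but 2090 with TMM scaling, 1627 with edgeR and 1867 with DESeq2. In 22Rv1 they numbered 1386, but 252 with TMM scaling, 3221 with DESeq2 and 373 with only the 2 groups compared. On the deposited scale with pseudocounts of 1, 0.1 and 5 these changes against IgG turned positive: TRPM8 (6.25, 9.55, 4.003), TRPM8.primary (7.0, 9.38, 4.91) and HOXB13 (8.99, 9.57, 7.69) in LNCaP, and HOXB13 (4.90, 5.09, 4.34), STEAP2 (5.11, 5.25, 4.601) and FKBP5 (6.65, 6.76, 6.25) in 22Rv1. So did TRPM8 (7.86), TRPM8.primary (0.62) and HOXB13 (1.02) of LNCaP with edgeR, and HOXB13 with TMM scaling (0.80) and DESeq2 (0.51). SLC45A3.primary of 22Rv1 was at -0.21 with DESeq2 and at -0.017 with the replicate block.

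Replicate letters are not stated to pair libraries. The differences between replicates A and B correlated at -0.354 across rows between LNCaP Brg1 and input, at 0.0152 between 22Rv1 Brg1 and input and at -0.146 between 22Rv1 input and Sfpq. With the replicate block, called rows were 2011 in LNCaP Brg1 against input and 5837 in 22Rv1 Brg1 against IgG, and 134 genes were called for the LNCaP ratio. No LNCaP member row or ratio against input passed in that fit, the Sfpq call of the SLC45A3 ratio was lost and HOXB13 passed in Sfpq, while KLK3 in LNCaP and STEAP2 and SLC45A3 in 22Rv1 passed against IgG. Blocks with crossed letters, a pairing that the labels do not give, were added after seeing the data. They called 10473 rows and 2492 ratios in LNCaP, 14 of 17 member rows among them. That pairing goes with the correlation of -0.354 in the same libraries, so these counts are no independent evidence on the members.

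Leaving out each library gave 715 to 6441 called rows in LNCaP Brg1 against input, 5953 to 13520 in Sfpq, 790 to 1903 and 105 to 5102 against IgG in LNCaP and 22Rv1, and 55 to 1936 called LNCaP ratios. Ranges that crossed 0 in LNCaP were -0.54 to 0.33 for TRPM8 (highest without input B), -0.25 to 0.043 for FKBP5 (above 0 without Brg1 B, and 0.024 without input B) and -0.11 to 0.38 for FKBP5.primary (below 0 without Brg1 B, and -0.056 without input B). For the LNCaP ratios they were -0.18 to 0.60 for KLK3 (below 0 without Brg1 B, and -0.0043 without input B), -0.065 to 0.65 for KLK2 (below 0 without Brg1 B) and -0.15 to 0.63 for FKBP5 (below 0 without Brg1 B, and -0.079 without input B). TMPRSS2.primary in Sfpq ranged from -0.015 (without Sfpq B) to 0.32, and STEAP2 in Brg1 against Sfpq from -0.90 to 0.022 (without Brg1 B). Against IgG in LNCaP they were -0.20 to 4.71 for KLK3, -0.81 to 3.49 for KLK3.primary, -0.25 to 2.39 for FOLH1 and -0.79 to 3.36 for STEAP2, each below 0 without IgG A, -0.068 to 0.26 for KLK2 (below 0 without Brg1 A), -0.49 to 0.20 for HOXB13 (above 0 without IgG A, and 0.18 without Brg1 B) and -0.32 to 0.74 for HOXB13.primary (below 0 without IgG B). SLC45A3.primary against IgG in 22Rv1 ranged from -0.16 (without IgG C) to 1.501. Depth limits the IgG comparisons, with 3 reads at 64.8 to 135.2 RPM in single LNCaP libraries.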
